A study of Homo sapiens with 12 samples.

Results

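The transcripts described here are those that changed in the same direction when AGS and MKN1 gastric cancer cells were treated with cantharidin sodium. A gene was taken as a member when the treatment effect of a model with line and treatment as separate terms had an adjusted p below 0.05, and when the log2 change had the same sign within AGS and within MKN1. Of 20280 tested genes, among 32269 in the count table, 595 had such a treatment effect (2.93%), 222 higher (1.09%) and 373 lower (1.84%), and 588 of these changed in the same direction in both lines (2.9%). The 588 members were 220 genes higher after treatment (1.08%) and 368 genes lower (1.81%), and the other 7 had opposite signs in the lines. Members were thus chosen by these adjusted p-values and signs, so the changes of members below are a description and carry no test.

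AGS is an established line labelled as gastric adenocarcinoma epithelium and MKN1 an established line labelled as gastric adenosquamous carcinoma. Both are labelled wild type, and each line had 3 untreated libraries and 3 libraries of cells treated with cantharidin sodium, which the design text calls biological replicates. The medium of all groups was RPMI-1640 with serum. The sources used here give no dose, no duration and no word on a vehicle. Each is a single line, so the comparison covers 2 cell backgrounds.

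Cantharidin, a toxin of blister beetles, is known as an inhibitor of the serine/threonine phosphatases PP2A and PP1, which remove phosphate from proteins of mitosis, growth factor signalling and stress responses. Dividing cells make DNA replication transcripts before and during S phase and mitotic transcripts in G2 and M phase, and the latter are regulated through promoter elements that the DREAM and FOXM1 complexes read. Heat shock transcripts encode chaperones and are driven by heat shock factors.

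The libraries held 28604966 to 51604215 counts, and mitochondrially encoded genes took 4.42% to 9.65% of them. MKN1 untreated replicate 3 stood furthest from its group, with a mean correlation of log2 CPM of 0.971 with the other 2, against 0.978 to 0.990 in the other libraries. With 1 library left out, the number of members ranged from 21 to 1833. Leave-out counts follow for the mitosis, replication, heat shock and oxidative phosphorylation lists, for members with differing effects and for shares of signs. The counts of other lists, of groups without overlap and of calls within a line are given with all 12 libraries only. Epithelial markers were present in both lines: 17 of 19 reached 1 CPM (counts of a gene relative to the scaled library total) in every group, and their summed level was 6454 to 7715 CPM in AGS and 6545 to 8475 CPM in MKN1 libraries. Single markers differed: EPCAM was at 424 to 467 CPM in AGS and 17.7 to 26.6 CPM in MKN1, and KRT8 at 2014 to 2700 and 2682 to 4139 CPM. Mesenchymal markers summed to 454.6 to 639.9 CPM in AGS and 4231 to 5173 CPM in MKN1. Gastric and intestinal markers that reached 1 CPM numbered 12 or 13 of 17 in AGS groups and 4 in MKN1 groups. Of 17 measured markers of blood, endothelium and fibroblasts, 8 reached 1 CPM in untreated AGS, 3 in treated AGS and 8 in each MKN1 group. Their summed level was 1107 to 1643 CPM in untreated and 1075 to 1511 CPM in treated AGS, mostly from LYZ (1024 to 1575 CPM), which gastric epithelium also makes, and 130.2 to 191 CPM in untreated and 76.3 to 132 CPM in treated MKN1 libraries. CDH5, an endothelial cadherin, stayed at or below 0.0679 CPM in every library. PECAM1, also endothelial, reached 0.951 CPM in untreated and 0.485 CPM in treated MKN1 libraries, and at most 0.0774 CPM in AGS. PTPRC, a blood cell marker, was at 0.103 to 0.551 CPM in untreated and 0 CPM in treated AGS libraries. In MKN1 PTPRC reached at most 0.153 CPM. HBB, the beta globin gene of red cells, was at 6.80 to 18.9 CPM in untreated and 0 to 0.0774 CPM in treated AGS libraries, and at 2.08 to 5.36 and 0.977 to 2.07 CPM in MKN1. HBA1 and HBA2, the alpha globin genes, were at 0.924 to 2.17 and 1.03 to 3.27 CPM in untreated AGS libraries. Both were at 0 CPM in treated AGS libraries, and between 0.674 and 1.65 CPM in all MKN1 libraries. HBB is no member, and the part of globin genes in the results was not tested.

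Most members changed modestly. The median absolute log2 change of the treatment effect was 0.58 among higher and 0.58 among lower members, against 0.23 over all tested genes, and 97 members reached an absolute log2 change of 1, with 34 higher and 63 lower. Within the lines, higher members had a median log2 change of 0.66 in AGS and 0.53 in MKN1, and lower members of -0.60 and -0.54. In 139 higher and 229 lower members the 3 treated libraries lay beyond the 3 untreated ones in both lines, which held for 1.73% and 2.52% of all tested genes (4.25% in either direction). The rule that named single genes by the size of their change required this, so for those genes it is no finding. In the fit of 4 groups, 445 members passed the threshold within AGS (20.8% of tested genes did), 230 within MKN1 (6.7%), 117 in both lines and 30 in neither. At the threshold, RPL41, a ribosomal protein gene, was just inside with an adjusted p of 0.0497 and a log2 change of -0.42, and EPHX1, an epoxide hydrolase gene, just outside with 0.05002 and -0.35.

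**Figure D1:**
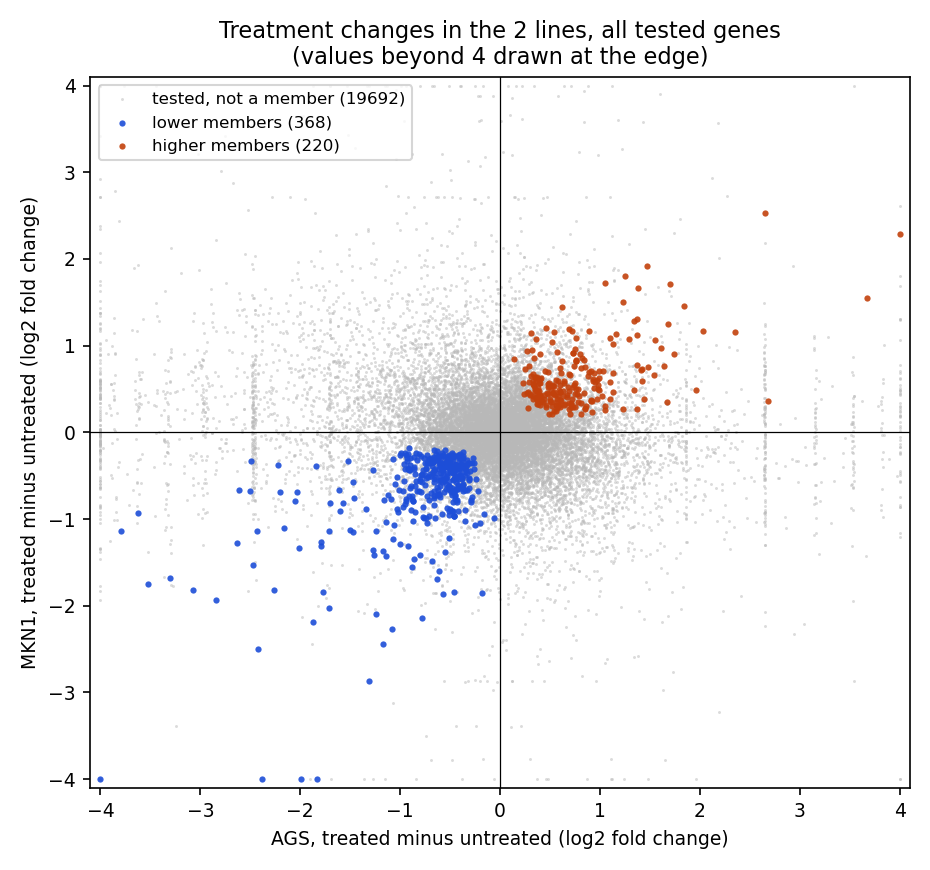
Log2 change after treatment in AGS (x axis) and MKN1 (y axis) for each of 20280 tested genes, with the 220 higher members in orange, the 368 lower members in blue and other genes in grey; values beyond 4 are drawn at the edge. Members lie in 2 opposite corners because the rule keeps only same-sign genes, while the grey points fill all 4 corners.

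Genes of mitosis made up the group with the largest share of members. Of 36 tested genes of the G2/M and mitosis list, 13 were lower members (36.1%, against 1.81% of all tested genes) and 0 were higher members. Without regard to a threshold, 31 of 36 were lower in both lines, against 24.4% of all tested genes. The median log2 change of the list was -0.40 in the treatment effect, -0.23 in AGS and -0.54 in MKN1, where all tested genes had a median of 0.00. The 13 lower members were CDC20, UBE2C, FOXM1, CCNB1, PLK1, AURKA, KIF2C, PTTG1, CCNB2, BIRC5, PRC1, KIF4A and KIF20A.

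CDC20 (chr1:43358955-43363203 in GRCh38), which activates the anaphase-promoting complex, was at 144, 126 and 147 CPM in untreated and 72.9, 66.8 and 76.9 CPM in treated AGS libraries. It was at 200.1, 227 and 149.7 CPM in untreated and 132, 96.4 and 111 CPM in treated MKN1 libraries. In both lines every treated library lay below every untreated one, and the log2 change was -0.95 ± 0.16 in AGS and -0.76 ± 0.15 in MKN1 (SE, n = 3 libraries per group throughout). Each SE comes from a fit with 1 dispersion per gene over all 12 libraries. It is therefore not a measure of the spread within 1 line. UBE2C (chr20:45812576-45816957), the ubiquitin-conjugating enzyme of the same complex, was at 156, 136 and 167 CPM in untreated and 109.6, 95.4 and 101 CPM in treated AGS libraries. Its level was 305, 334 and 259 CPM in untreated and 179.8, 151 and 136 CPM in treated MKN1 libraries. The groups did not overlap in either line, and the log2 change of UBE2C was -0.58 ± 0.13 in AGS and -0.94 ± 0.13 in MKN1.

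FOXM1 (chr12:2857681-2877155), a transcription factor of G2/M genes, was at 189, 186 and 204 CPM in untreated and 107, 115 and 123 CPM in treated AGS libraries. In MKN1 it was at 85.2, 99.1 and 102 CPM before and 74.99, 57.1 and 71.2 CPM after treatment. FOXM1 changed by -0.75 ± 0.12 in AGS and -0.50 ± 0.12 in MKN1 on the log2 scale, again without overlap. CCNB1, the cyclin that activates CDK1 at entry into mitosis, was at 212, 176 and 213 CPM in untreated and 146, 133 and 156 CPM in treated AGS libraries and at 419.5, 414 and 324 CPM in untreated and 240.1, 161 and 192 CPM in treated MKN1 libraries. PLK1, a mitotic kinase, was at 159, 137 and 160.0 CPM in untreated and 89.4, 81.7 and 94.04 CPM in treated AGS libraries and at 181, 205 and 144 CPM in untreated and 144, 105 and 129.9 CPM in treated MKN1 libraries. The treated libraries of both genes lay below the untreated ones in both lines. BIRC5, which encodes the chromosomal passenger protein survivin, had log2 changes of -0.60 ± 0.17 in AGS and -0.55 ± 0.17 in MKN1, and CCNF, an F-box cyclin outside the list, of -0.76 ± 0.20 in AGS and -0.99 ± 0.21 in MKN1. Other genes of the list had smaller or less even changes: CDK1, the mitotic kinase itself, had a treatment effect of -0.51 ± 0.20 (adjusted p = 0.167, edgeR) and TOP2A, a topoisomerase, of -0.39 ± 0.23 (adjusted p = 0.35, edgeR).

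Single libraries weighed on this group. The median deviation of the 36 mitosis genes from the untreated mean of the line, on the scale of log2(CPM + 0.5), was -0.27, -0.30 and -0.15 in treated AGS libraries and 0.05, -0.06 and 0.02 in untreated ones. In MKN1 it was -0.20, -0.69 and -0.80 in treated and 0.16, 0.10 and -0.25 in untreated libraries, so that untreated replicate 3 lay among the treated ones. The 13 lower members became 3 to 6 with any 1 AGS library left out, 3 without MKN1 untreated replicate 2, 7 without MKN1 treated replicate 2 and 12 to 15 without each of the other MKN1 libraries. Fewer cells in G2/M and less of these RNAs per cell cannot be told apart in bulk RNA.

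Promoters of these genes are shown because the members moved together and share short elements. RefSeq gave a promoter for 13023 of the 20280 tested genes and for 9 of the 13 mitosis members, and the 250 bases before the start were searched on both strands. The CCAAT box (CCAAT), known to bind NF-Y, was in 8 of these 9 promoters, in 23 of 30 promoters of the whole mitosis list and in 34.6% of the promoters of all tested genes. The cell cycle homology region, or CHR element (TTTGAA), was in 5 of 9, in 15 of 30 and in 8.98%, respectively. The sequences below run 5′ to 3′ on the gene's strand in GRCh38.p14, and capitals mark a CCAAT box, read as ATTGG on the other strand, or a CHR element, read as TTCAAA. They are CDC20 at chr1:43358731-43358980 (plus strand), CCNB1 at chr5:69166900-69167149 (plus strand) and PLK1 at chr16:23678639-23678888 (plus strand).
CDC20: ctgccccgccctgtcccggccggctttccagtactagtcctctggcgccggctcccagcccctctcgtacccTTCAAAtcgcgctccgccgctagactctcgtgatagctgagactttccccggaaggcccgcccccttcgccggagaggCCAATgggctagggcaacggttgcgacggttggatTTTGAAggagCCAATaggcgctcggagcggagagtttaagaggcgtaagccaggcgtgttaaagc
CCNB1: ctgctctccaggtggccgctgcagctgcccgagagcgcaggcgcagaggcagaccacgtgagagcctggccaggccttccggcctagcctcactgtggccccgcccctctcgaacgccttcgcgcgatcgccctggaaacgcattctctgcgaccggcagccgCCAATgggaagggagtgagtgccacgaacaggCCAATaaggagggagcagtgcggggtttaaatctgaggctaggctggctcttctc
PLK1: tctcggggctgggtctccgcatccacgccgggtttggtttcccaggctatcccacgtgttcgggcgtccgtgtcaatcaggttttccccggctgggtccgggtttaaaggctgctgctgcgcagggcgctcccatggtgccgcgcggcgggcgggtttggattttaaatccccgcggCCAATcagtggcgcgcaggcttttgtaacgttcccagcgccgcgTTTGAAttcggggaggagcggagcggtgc
CDC20 held CCAAT boxes beginning 100 and 55 bases before the start and CHR elements 178 and 65 bases before it. CCNB1 held CCAAT boxes at 87 and 55 bases, and PLK1 a CCAAT box at 73 bases and a CHR element at 29 bases. A match is a description of the letters and not evidence of a bound site. The table gave a promoter for 13023 of 20280 tested genes, too small a part for a comparison of shares between members and other genes, which is therefore void. The shares only describe the promoters at hand.

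DNA replication genes were also lower. Of 37 tested genes of DNA replication and G1/S, 8 were lower members (21.6%, against 1.81% of all tested genes) and 0 higher members. In both lines 27 of the 37 were lower, against 24.4% of all tested genes. The median log2 change was -0.32, with -0.24 in AGS and -0.36 in MKN1. The 8 were LIG1, TYMS, FEN1, POLD1, CDT1, ORC1, GINS3 and GINS1. LIG1 (chr19:48115445-48170603), the ligase that joins Okazaki fragments, was at 122, 119 and 134 CPM in untreated and 76.7, 73.3 and 79.7 CPM in treated AGS libraries. It was at 41.1, 43.8 and 31.1 CPM in untreated and 24.99, 16.6 and 17.6 CPM in treated MKN1 libraries. No treated library reached an untreated one, and the log2 change was -0.71 ± 0.16 in AGS and -0.97 ± 0.16 in MKN1.

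TK1 (chr17:78174075-78187233), the S-phase thymidine kinase, lies outside the list and was at 139, 131 and 179 CPM in untreated and 79.4, 73.6 and 80.6 CPM in treated AGS libraries. TK1 was at 41.3, 48.99 and 35.2 CPM in untreated and 29.1, 18.8 and 24.7 CPM in treated MKN1 libraries. Its groups stood apart in both lines, with log2 changes of -0.94 ± 0.17 in AGS and -0.79 ± 0.17 in MKN1. TYMS (chr18:657604-673578), the thymidylate synthase gene, changed by -0.79 ± 0.15 in AGS and -0.69 ± 0.15 in MKN1, but 46.6% of its exon bases lie in another annotated gene, and reads of the 2 genes cannot be told apart without strand. FEN1, the flap endonuclease of lagging-strand synthesis, changed by -0.73 ± 0.18 in AGS and -0.73 ± 0.18 in MKN1, and POLD1, the catalytic subunit of polymerase delta, by -0.43 ± 0.16 in AGS and -0.78 ± 0.17 in MKN1. The genes of the MCM2 to MCM7 helicase had no member: MCM7 had a treatment effect of -0.38 ± 0.10 (adjusted p = 0.0596, edgeR) and MCM6 of -0.04 ± 0.14 (adjusted p = 0.909, edgeR). The 8 members became 2 to 4 with any 1 AGS library left out, 2 without MKN1 untreated replicate 2, 5 without MKN1 treated replicate 2 and 15 without MKN1 untreated replicate 3.

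**Figure D2:**
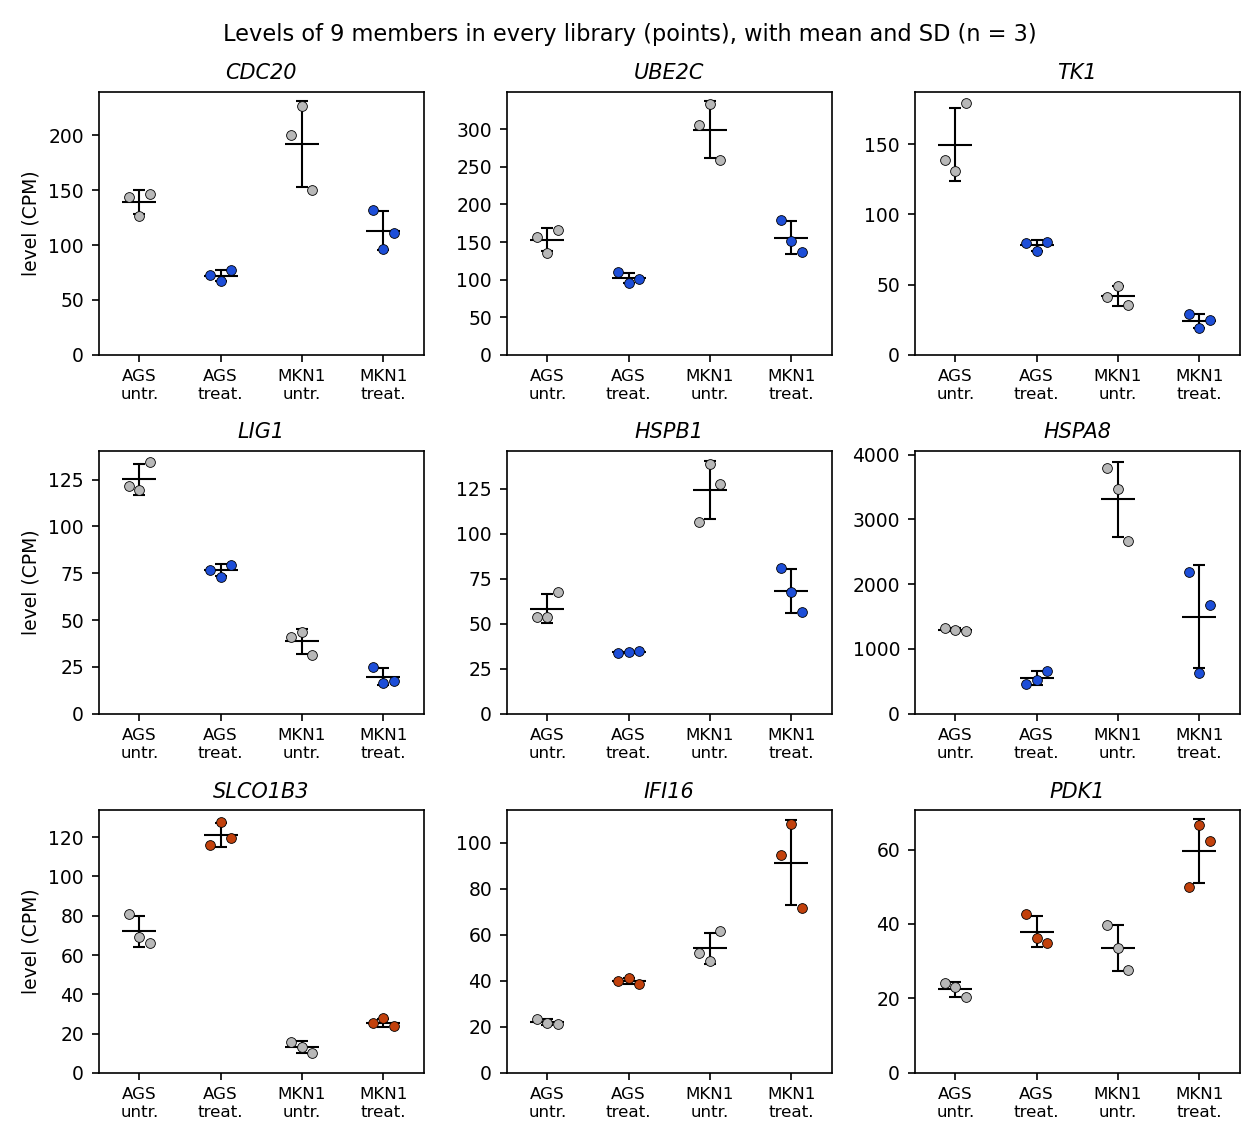
Level in CPM (y axis, from 0) of 9 members in each of the 12 libraries (points; grey untreated, blue treated and lower, orange treated and higher), with the mean (line) and SD (bars, n = 3) of each group. In every panel the 3 treated libraries of a line lie beyond its 3 untreated ones, which the naming rule required of all but UBE2C. The 3 treated MKN1 libraries of HSPA8 range from 626 to 2194 CPM.

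Cytosolic chaperone genes included some of the largest decreases. Of 23 tested heat shock genes, 5 were lower members (21.7%, against 1.81% of all tested genes) and 0 higher members. In both lines 14 of the 23 were lower, against 24.4% of all tested genes. The median log2 change was -0.54 in AGS and -0.12 in MKN1. HSPA8 (chr11:123057489-123063230), the constitutive HSP70 chaperone, was at 1323, 1289 and 1283 CPM in untreated and 459, 528 and 663 CPM in treated AGS libraries. It was at 3788, 3464 and 2669 CPM in untreated and 2194, 626 and 1672 CPM in treated MKN1 libraries. Groups did not overlap, but MKN1 treated replicate 2 was far below the other 2 treated libraries, and the log2 change was -1.24 ± 0.33 in AGS and -1.14 ± 0.32 in MKN1. The SE pools both lines, so that of AGS also carries the spread of MKN1. HSPB1 (chr7:76302544-76304295), a small heat shock protein, was at 53.7, 53.6 and 67.8 CPM in untreated and 33.9, 34.02 and 34.6 CPM in treated AGS libraries. Its level was 107, 139 and 128 CPM in untreated and 81.002, 67.4 and 56.4 CPM in treated MKN1 libraries. HSPB1 had even treated AGS libraries, no overlap in either line and log2 changes of -0.77 ± 0.15 in AGS and -0.86 ± 0.15 in MKN1.

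HSPA1A (chr6:31815464-31817946), the stress-inducible HSP70 gene, was at 70.1, 64.05 and 73.2 CPM in untreated and 28.2, 29.6 and 28.1 CPM in treated AGS libraries and at 158, 184 and 111 CPM in untreated and 89.1, 25.8 and 62.02 CPM in treated MKN1 libraries. The treated libraries were again the lower ones, with the same MKN1 treated replicate 2 lowest, and the log2 change was -1.27 ± 0.32 in AGS and -1.36 ± 0.32 in MKN1. These SEs also pool both lines. HSPA1B, its near-identical neighbour, changed by -1.26 ± 0.33 in AGS and -1.41 ± 0.34 in MKN1. Reads of HSPA1A and HSPA1B can be split between the copies in counting, so each value is uncertain. DNAJB1, an HSP40 cochaperone that delivers clients to HSP70, changed by -0.51 ± 0.15 in AGS and -0.62 ± 0.15 in MKN1. The other chaperones were uneven: HSP90AA1, the inducible HSP90, had a treatment effect of -0.42 ± 0.18 (adjusted p = 0.179, edgeR) and HSPD1, the mitochondrial chaperonin, of 0.06 ± 0.10 (adjusted p = 0.759, edgeR). The 5 members became 1 without AGS untreated replicate 3, 1 without MKN1 untreated replicate 2, 3 without AGS untreated replicate 2 or AGS treated replicate 1 or 3, and 10 without MKN1 untreated replicate 3.

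The promoters of 3 heat shock members are shown for the heat shock element, 2 facing units of the heat shock factor site written GAANNTTC. This element was in 4 of the 5 heat shock members, in 7 of 21 promoters of the list and in 4.22% of the promoters of tested genes. It was added to the search after the members were known. Capitals mark heat shock elements and CCAAT boxes in HSPA8 at chr11:123062137-123062386 (minus strand), HSPA1A at chr6:31815293-31815542 (plus strand) and HSPB1 at chr7:76302423-76302672 (plus strand), from RefSeq on GRCh38.p14.
HSPA8: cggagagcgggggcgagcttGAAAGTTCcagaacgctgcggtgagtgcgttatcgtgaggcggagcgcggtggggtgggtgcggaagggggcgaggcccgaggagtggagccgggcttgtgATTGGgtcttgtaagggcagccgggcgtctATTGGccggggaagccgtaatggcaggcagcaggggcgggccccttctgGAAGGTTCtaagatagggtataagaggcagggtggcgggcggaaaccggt
HSPA1A: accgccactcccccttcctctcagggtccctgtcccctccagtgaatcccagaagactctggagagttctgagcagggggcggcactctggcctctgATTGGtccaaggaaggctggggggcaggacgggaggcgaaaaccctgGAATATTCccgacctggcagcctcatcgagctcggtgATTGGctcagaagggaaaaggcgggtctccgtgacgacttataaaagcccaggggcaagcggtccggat
HSPB1: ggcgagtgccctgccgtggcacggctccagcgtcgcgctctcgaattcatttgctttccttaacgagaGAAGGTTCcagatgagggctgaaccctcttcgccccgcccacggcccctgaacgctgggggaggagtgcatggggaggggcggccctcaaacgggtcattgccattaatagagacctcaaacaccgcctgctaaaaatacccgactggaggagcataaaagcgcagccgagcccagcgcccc
The heat shock elements began 230 and 50 bases before the start in HSPA8, 106 bases before it in HSPA1A and 182 bases before it in HSPB1. HSPA8 had CCAAT boxes at 129 and 99 bases and HSPA1A at 153 and 69 bases.

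Nuclear genes of oxidative phosphorylation were lower by small amounts. Of 41 tested genes, 8 were lower members (19.5%, against 1.81% of all tested genes) and 0 higher members. In both lines 36 of the 41 were lower, against 24.4% of all tested genes. The median log2 change was -0.42 in AGS and -0.30 in MKN1. UQCRC1 (chr3:48599002-48610976), a core subunit of respiratory complex III, was at 133, 126 and 151 CPM in untreated and 90.6, 90.8 and 93.3 CPM in treated AGS libraries. It was at 125, 147 and 124 CPM in untreated and 102, 86.3 and 107 CPM in treated MKN1 libraries. Its groups did not overlap, and the log2 change was -0.58 ± 0.12 in AGS and -0.42 ± 0.12 in MKN1. NDUFA2, a complex I subunit, changed by -0.79 ± 0.17 in AGS and -0.49 ± 0.17 in MKN1, with overlap in MKN1, where treated replicate 3 was at 30.7 CPM and untreated replicate 1 at 30.6 CPM. CYC1 of complex III, COX6A1, COX6B1 and COX8A of complex IV, and ATP5PO and ATP5MC1 of ATP synthase were the other members, with treatment effects from -0.66 to -0.34. Of 15 tested mitochondrially encoded genes, 0 were members. The 8 became 0 or 1 with any 1 AGS library left out, 0 without MKN1 untreated replicate 2, 1 without MKN1 treated replicate 2, 5 without MKN1 treated replicate 1, 18 without MKN1 untreated replicate 3 and 24 without MKN1 treated replicate 3.

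Redox and iron genes of the NRF2 list gave 5 lower members among 28 tested (17.9%, against 1.81% of all tested genes) and 0 higher ones. HMOX1 (chr22:35380361-35394214), which breaks down haem, was at 101, 102 and 122 CPM in untreated and 42.9, 60.5 and 43.3 CPM in treated AGS libraries and at 74.3, 78.3 and 27.7 CPM in untreated and 27.2, 31.5 and 28.9 CPM in treated MKN1 libraries. AGS groups stood apart, whereas MKN1 untreated replicate 3 lay within the treated range, and the log2 change was -1.14 ± 0.29 in AGS and -1.04 ± 0.29 in MKN1. FTL, the ferritin light chain, changed by -0.66 ± 0.11 in AGS and -0.28 ± 0.11 in MKN1, AKR1C3, an aldo-keto reductase, by -0.46 ± 0.27 in AGS and -1.85 ± 0.26 in MKN1, and TALDO1, an enzyme of the pentose phosphate pathway, had a treatment effect of -0.40 ± 0.09. NEU1, CTSD and MCOLN1, a sialidase, a protease and an ion channel of the lysosome, were the 3 lower members among 35 genes of autophagy and lysosome (8.57%). CTSD changed by -0.47 ± 0.11 in AGS and -0.47 ± 0.11 in MKN1, with 52.7% of its exon bases shared with another gene.

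NOTCH3 (chr19:15159038-15200981), a Notch receptor, had the largest decrease among lower members that met the rule for naming single genes. It was at 8.12, 8.399 and 17.05 CPM in untreated and 2.86, 3.82 and 2.96 CPM in treated AGS libraries and at 19.4, 21.05 and 9.81 CPM in untreated and 7.89, 8.08 and 5.02 CPM in treated MKN1 libraries. No treated library overlapped the untreated ones, although the untreated libraries were uneven, and the log2 change was -1.80 ± 0.35 in AGS and -1.26 ± 0.34 in MKN1. CD82, a tetraspanin known as a metastasis suppressor, was at 7.11, 8.11 and 7.62 CPM in untreated and 3.59, 3.897 and 3.64 CPM in treated AGS libraries and at 34.1, 43.2 and 27.6 CPM in untreated and 22.5, 25.2 and 25.6 CPM in treated MKN1 libraries. MAB21L4 had log2 changes of -0.88 ± 0.26 in AGS and -1.55 ± 0.27 in MKN1. PTMAP5, a processed pseudogene of prothymosin alpha whose count is uncertain because it resembles the parent gene, had log2 changes of -0.88 ± 0.23 in AGS and -0.77 ± 0.23 in MKN1.

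Higher members did not gather in any list to the same extent. The lists with the largest shares were ERK feedback and output, with 2 of 24 (8.33%), and glycolysis and hypoxia, with 2 of 33 (6.06%). Over all tested genes 1.08% were higher members, and 2 genes are too few to describe a list. SPRED1 (chr15:38252326-38357249), an inhibitor of RAS and RAF signalling, was at 118, 128 and 122 CPM in untreated and 181, 199.7 and 190.3 CPM in treated AGS libraries. It was at 33.5, 33.6 and 35.4 CPM in untreated and 49.7, 45.99 and 47.2 CPM in treated MKN1 libraries. Treated libraries were the higher ones in both lines, and the log2 change was 0.63 ± 0.09 in AGS and 0.48 ± 0.09 in MKN1. SPRY1, a related feedback inhibitor of receptor tyrosine kinases, changed by 0.92 ± 0.16 in AGS and 0.36 ± 0.18 in MKN1. The whole ERK list had a median log2 change of 0.28, with 13 of 24 genes higher in both lines, against 24.1% of all tested genes. Its median deviation from the untreated mean of the line, on the scale of log2(CPM + 0.5), was -0.09, 0.05 and 0.03 in untreated and 0.04, 0.29 and 0.11 in treated AGS libraries. In MKN1 it was 0.35, 0.30 and -0.65 in untreated replicates 1, 2 and 3 and 0.08, 0.41 and 0.37 in treated ones. Untreated replicate 3 of MKN1 was far below the rest, and the other 2 untreated MKN1 libraries lay within the treated range.

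PDK1 (chr2:172555373-172608669), the pyruvate dehydrogenase kinase that limits entry of pyruvate into the citrate cycle, was at 24.01, 23.1 and 20.3 CPM in untreated and 42.7, 36.1 and 34.9 CPM in treated AGS libraries and at 39.9, 33.4 and 27.5 CPM in untreated and 50.1, 66.5 and 62.4 CPM in treated MKN1 libraries. HK2, the first enzyme of glycolysis in many tumours, was at 124, 118 and 109.7 CPM in untreated and 225, 226 and 217 CPM in treated AGS libraries and at 63.03, 57.2 and 65.2 CPM in untreated and 68.4, 98.3 and 112 CPM in treated MKN1 libraries. Neither gene's groups overlapped, and the log2 changes were 0.76 ± 0.15 in AGS and 0.83 ± 0.15 in MKN1 for PDK1 and 0.93 ± 0.15 in AGS and 0.59 ± 0.15 in MKN1 for HK2. The glycolysis list as a whole had a median of -0.01, with 16 of 33 genes of opposite sign in the lines.

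IFI16 (chr1:158999968-159055155), a nuclear DNA sensor, was at 23.4, 21.7 and 21.2 CPM in untreated and 39.7, 41.1 and 38.8 CPM in treated AGS libraries. Its level was 51.99, 48.8 and 61.8 CPM in untreated and 94.5, 108 and 71.4 CPM in treated MKN1 libraries. Treated libraries of both lines lay above the untreated ones, with log2 changes of 0.85 ± 0.14 in AGS and 0.75 ± 0.14 in MKN1. Of 36 tested interferon-stimulated genes, 0 were members, and 2 were higher and 15 lower in both lines. SLCO1B3 (chr12:20810702-20916911), an organic anion transporter, was at 81.1, 68.99 and 65.98 CPM in untreated and 116, 128 and 119.6 CPM in treated AGS libraries and at 15.9, 13.3 and 10.2 CPM in untreated and 25.2, 27.8 and 23.7 CPM in treated MKN1 libraries, with log2 changes of 0.75 ± 0.14 in AGS and 0.96 ± 0.15 in MKN1. Here 54.5% of the exon bases lie in another annotated gene, so the count is uncertain. GIPR, the receptor of the gut hormone GIP, was at 6.598, 7.08 and 7.39 CPM in untreated and 12.1, 13.9 and 13.2 CPM in treated AGS libraries and at 4.52, 2.44 and 4.97 CPM in untreated and 9.17, 9.06 and 8.62 CPM in treated MKN1 libraries. GIPR had the largest increase under the naming rule, 0.89 ± 0.21 in AGS and 1.17 ± 0.22 in MKN1 on the log2 scale.

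Other named increases had these values. DGKE, a diacylglycerol kinase, changed by 0.99 ± 0.13 in AGS and 0.62 ± 0.13 in MKN1. USP53, of the ubiquitin-specific peptidase family, changed by 1.13 ± 0.19 in AGS and 0.69 ± 0.19 in MKN1. JMY, a cofactor of p53 and nucleator of actin, changed by 0.89 ± 0.17 in AGS and 0.70 ± 0.17 in MKN1. LIPG, endothelial lipase, changed by 0.46 ± 0.23 in AGS and 1.21 ± 0.24 in MKN1, PARP8 by 0.52 ± 0.23 in AGS and 1.04 ± 0.23 in MKN1 and AKNA by 0.76 ± 0.20 in AGS and 0.82 ± 0.21 in MKN1. In each of these 6 genes the treated libraries lay above the untreated ones in both lines, as the naming rule required. FAM106A, a noncoding transcript with 49.15% of its exon bases in another gene, changed by 0.62 ± 0.21 in AGS and 1.45 ± 0.23 in MKN1.

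**Figure D3:**
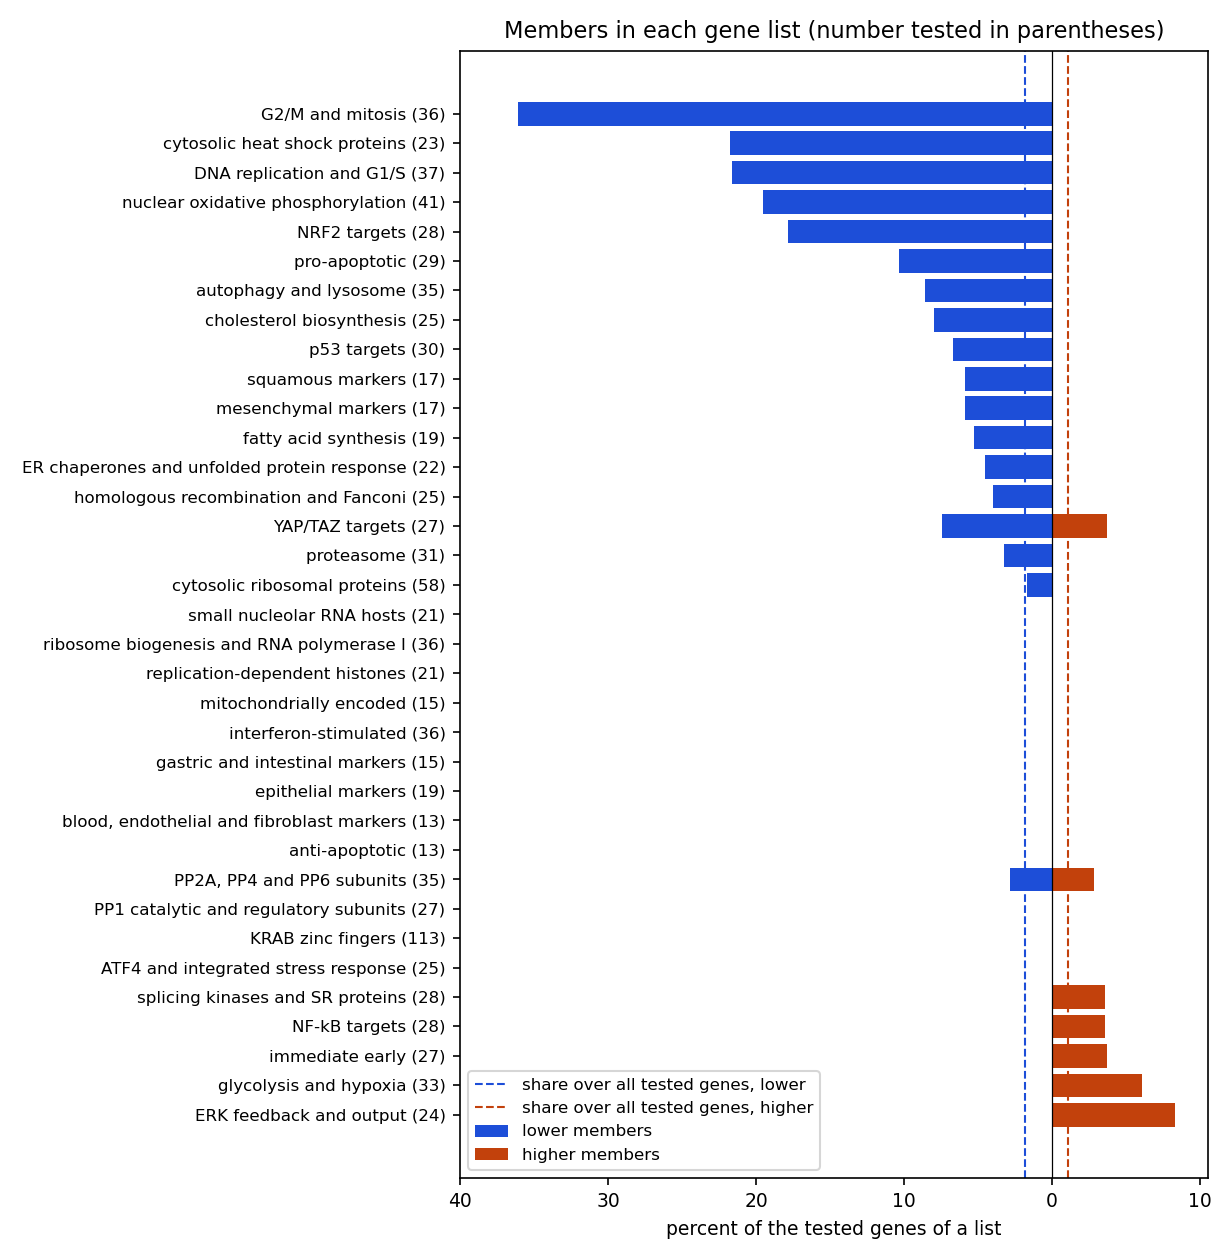
Percent of the tested genes of each of 35 lists that are lower members (blue, to the left) or higher members (orange, to the right), with the share over all tested genes as dashed lines. G2/M and mitosis reaches 36.1% on the lower side, 4 further lists lie between 17.9% and 21.7%, and no list exceeds 8.33% on the higher side.

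The known targets of cantharidin are protein phosphatases. Of 35 tested subunits of PP2A, PP4 and PP6, 1 was a higher member (2.86%, against 1.08% of all tested genes) and 1 a lower member (2.86%, against 1.81%), and 23 of 35 had opposite signs in the lines. PPP2R5A, a regulatory B56 subunit of PP2A, was at 161, 155 and 164 CPM in untreated and 187, 183 and 192 CPM in treated AGS libraries and at 35.2, 31.6 and 42.9 CPM in untreated and 56.3, 49.5 and 56.8 CPM in treated MKN1 libraries, with no overlap. PPP4C, the catalytic subunit of PP4, was at 131, 129.6 and 170.3 CPM in untreated and 106, 103 and 102 CPM in treated AGS libraries and at 98.8, 121 and 100.3 CPM in untreated and 81.97, 71.7 and 88.4 CPM in treated MKN1 libraries, also with no overlap. The catalytic subunits of PP2A did not pass, with treatment effects of 0.02 ± 0.09 for PPP2CA (adjusted p = 0.91, edgeR) and 0.03 ± 0.08 for PPP2CB (adjusted p = 0.865, edgeR). Among 27 tested PP1 subunits there were 0 members, and the 3 catalytic genes had effects of -0.35 ± 0.13 (PPP1CA, adjusted p = 0.134, edgeR), 0.12 ± 0.08 (PPP1CB, adjusted p = 0.421, edgeR) and -0.03 ± 0.10 (PPP1CC, adjusted p = 0.89, edgeR).

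The remaining lists are given by count, beside 1.81% of all tested genes as lower and 1.08% as higher members. Cholesterol biosynthesis had 2 lower members among 25 (8%), TM7SF2 and EBP, while 20 of its genes had opposite signs, with a median log2 change of -0.78 in AGS and 0.42 in MKN1. Among 29 pro-apoptotic genes, the 3 lower members (10.3%) were BAX, BOK and BAD, and among 30 p53 targets they were BAX and FDXR (6.67%). Of 27 YAP/TAZ targets MYOF was a higher member (3.7%), and BIRC5 and NUAK2 were lower members (7.41%). CXCL2 was the higher member among 28 NF-kB targets and DYRK2 among 28 splicing kinases and SR proteins. RPS15 was the lower member among 58 cytosolic ribosomal protein genes, of which 48 were lower in both lines. FANCG, SREBF1, PSMD4, SDF2L1, COL1A1 and LY6D were the single lower members of the homologous recombination, fatty acid, proteasome, endoplasmic reticulum chaperone, mesenchymal and squamous lists.

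These single members had the following values. TM7SF2, a sterol reductase, changed by -0.78 ± 0.20 in AGS and -0.57 ± 0.21 in MKN1, and EBP, a sterol isomerase, by -0.93 ± 0.17 in AGS and -0.33 ± 0.17 in MKN1, both with overlap in MKN1. FDXR, the ferredoxin reductase of mitochondria, was at 25.4, 24.97 and 27.3 CPM in untreated and 14.1, 11.8 and 15.05 CPM in treated AGS libraries and at 4.62, 6.16 and 3.74 CPM in untreated and 3.83, 3.32 and 3.76 CPM in treated MKN1 libraries, where the MKN1 groups overlapped. BOK, a BCL2 family effector of cell death, was at 29.7, 29.8 and 34.5 CPM in untreated and 23.7, 25.5 and 23.1 CPM in treated AGS libraries and at 41.3, 51.6 and 58.9 CPM in untreated and 36.1, 32.7 and 36.6 CPM in treated MKN1 libraries, with no overlap. CXCL2, a chemokine that attracts neutrophils, was at 12.8, 11.1 and 12.5 CPM in untreated and 19.6, 16.5 and 18.1 CPM in treated AGS libraries and at 41.5, 46.7 and 52.1 CPM in untreated and 54.6, 66.1 and 52.7 CPM in treated MKN1 libraries, with every treated library above the untreated ones. DYRK2, a protein kinase, changed by 0.43 ± 0.12 in AGS and 0.35 ± 0.12 in MKN1 without overlap, and NUAK2, a kinase related to AMPK, by -0.64 ± 0.17 in AGS and -0.47 ± 0.18 in MKN1 with overlap in MKN1. COL1A1, a chain of type I collagen, changed by -0.84 ± 0.17 in AGS and -0.56 ± 0.17 in MKN1 and FANCG, a subunit of the Fanconi core complex, by -0.28 ± 0.13 in AGS and -0.75 ± 0.13 in MKN1, both without overlap. SREBF1, the gene of SREBP1, RPS15 and PSMD4, a ubiquitin receptor of the proteasome, overlapped in MKN1, with changes there of -0.24 ± 0.11, -0.39 ± 0.17 and -0.31 ± 0.12.

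The next question was whether members changed by the same amount in both lines. The treatment effect differed between the lines at an adjusted p below 0.05 (edgeR) in 37 of 588 members, against 15.7% of all tested genes. The choice of members limits this share. It keeps same-sign genes only, and a difference between lines adds to the residual of the model of line plus treatment. The change was larger in AGS in 30 of the 37 members and larger in MKN1 in 7. The 37 became 0 or 1 with any 1 AGS library left out, 0, 5 and 24 without MKN1 untreated replicate 2, treated replicate 2 and treated replicate 1, and 184 and 161 without MKN1 untreated replicate 3 and treated replicate 3. KLF2 (chr19:16324817-16327874), a transcription factor of the immediate early list, was at 3.68, 3.54 and 4.72 CPM in untreated and 23.8, 28.2 and 24.4 CPM in treated AGS libraries and at 6.9998, 8.17 and 8.61 CPM in untreated and 8.197, 11.8 and 10.5 CPM in treated MKN1 libraries. Its AGS groups stood far apart and its MKN1 groups overlapped, and the difference in log2 change, MKN1 minus AGS, was -2.32 ± 0.25 (adjusted p = 0.000235, edgeR). RASSF3 was at 68.5, 69.8 and 67.3 CPM in untreated and 126, 124 and 123 CPM in treated AGS libraries and at 25.01, 20.3 and 25.05 CPM in untreated and 30.1, 27.6 and 26.96 CPM in treated MKN1 libraries, with a difference of -0.59 ± 0.14 (adjusted p = 0.0157, edgeR). The changes of MKN1 were the larger ones in BCAM, a laminin receptor, at 267, 263 and 318 CPM in untreated and 253, 251 and 233 CPM in treated AGS libraries and at 62.4, 73.2 and 77.4 CPM in untreated and 34.4, 28.6 and 40.6 CPM in treated MKN1 libraries, where the difference was -0.84 ± 0.19 (adjusted p = 0.0118, edgeR).

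Members that led the groups had a low adjusted p in the model of line plus treatment, which favours genes with small differences between lines. The difference was 0.18 ± 0.22 in CDC20 (adjusted p = 0.61, edgeR), -0.09 ± 0.21 in HSPB1 (adjusted p = 0.801, edgeR) and -0.10 ± 0.20 in IFI16 (adjusted p = 0.779, edgeR), where a missed threshold does not show equal effects. Levels of members differed between the lines, a measure that the rule did not use. It came from the same fit, and members had higher levels than all tested genes, so the shares below are a description. In 485 of 588 members (82.5%) MKN1 and AGS levels differed at an adjusted p below 0.05 in the edgeR fit, against 71.3% of all tested genes, and members were at a median of 35.7 CPM in AGS, where all tested genes were at 8.62 CPM. Higher members were higher in AGS in 125 and in MKN1 in 55 cases, and lower members in 153 and 152, where 33.6% of tested genes were higher in AGS and 37.7% in MKN1. LIG1 and TK1 were higher in AGS, with MKN1 minus AGS level differences of -1.82 (adjusted p = 8e-09, edgeR) and -1.76 (adjusted p = 1.6e-08, edgeR), whereas IFI16 was higher in MKN1 by 1.24 (adjusted p = 9.14e-08, edgeR).

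Genes called in 1 line alone, whether members or not, were compared with the direction of change in the other line, since AGS and MKN1 share no library. With AGS fitted alone, 8318 genes were called (41%), and with MKN1 alone 30 (0.148%). Of the 3972 genes called higher in AGS, 46.8% were also higher in MKN1, where 50.8% of all tested genes were, and of the 4346 called lower, 46.8% were also lower, where 49.2% were. Genes called in AGS and called the same way in MKN1 numbered 0 higher and 1 lower, and 9 and 2 were called the opposite way. Of the 30 genes called in MKN1 alone, 6 were members, and 33.3% had the same sign in AGS. These were 2 of 4 higher and 8 of 26 lower genes, where 49.0% and 51.0% of all tested genes were higher and lower in AGS. Without MKN1 untreated replicate 2 the share was 66.7%, of a number of genes not given here. Among 12880 genes with at least 1 CPM in each line, the changes of the lines had a Spearman correlation of -0.05 and a Pearson correlation of -0.19. Over all tested genes 48.5% had the same sign in both lines, and the members are the part of that share with a treatment effect past the threshold. The share of AGS calls with the same sign in MKN1 was 40.3% without MKN1 treated replicate 2 and 54.3% without MKN1 treated replicate 3.

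The 2 directions differed in base composition and length, which the rule did not use. The median GC content of the longest transcript was 42.7% in higher members, 57.4% in lower members and 48.5% over all tested genes, and the median length was 4946, 2497 and 2958 bases. Of higher members 81.8% were protein-coding and 11 were antisense genes, which are uncertain because the library kit does not mark strand. Of lower members 97.6% were protein-coding, with 0 antisense genes. Over all 20280 tested genes 73.8% were protein-coding and 1386 were antisense, so the 11 among 220 higher members are no surplus. Among genes with at least 1 CPM in each line, in 5 equal bins by GC content, higher members numbered 78, 56, 39, 8 and 10 from the lowest to the highest GC content, and lower members 8, 24, 47, 84 and 148. The 36 tested genes of the mitosis list, of which 13 were lower members, had a median GC content of 43.8%. The part of GC content in the changes was not tested.

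**Figure D4:**
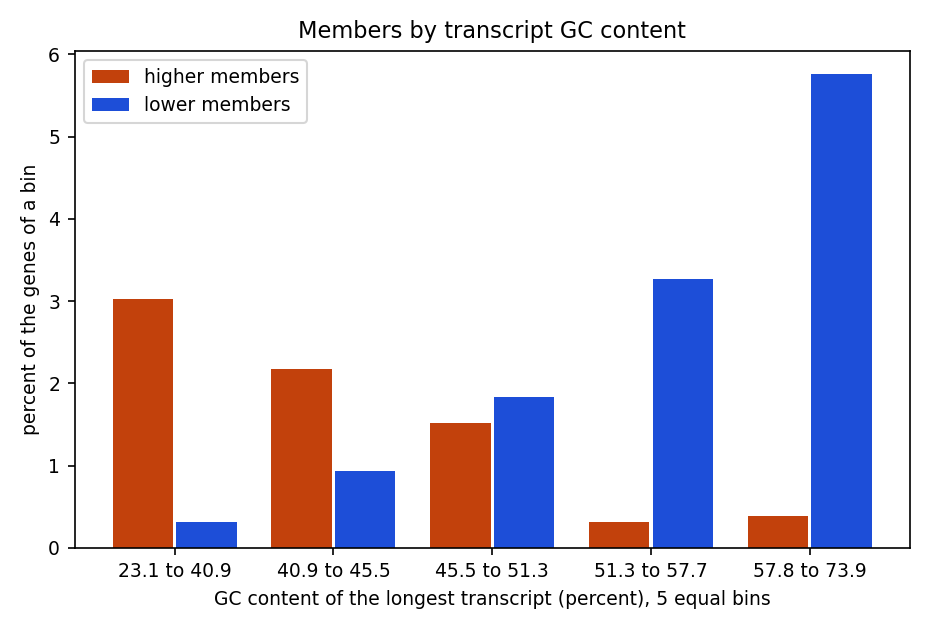
Percent of the genes of each of 5 equal bins by transcript GC content (x axis, range of the bin in percent; genes with at least 1 CPM in each line) that are higher members (orange) or lower members (blue). The share of lower members goes from 0.311% in the lowest to 5.76% in the highest bin, and that of higher members from 3.03% to 0.389%.

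GC content also ordered the changes of single libraries within a group. The Spearman correlation across genes between a library's deviation from the untreated mean of its line and GC content was -0.28, -0.31 and -0.35 in treated AGS libraries and -0.21, -0.22 and 0.36 in untreated ones. In MKN1 it was -0.30, -0.26 and 0.16 in treated and -0.49, 0.12 and 0.26 in untreated libraries. With each library's trend on GC content and length removed, 310 genes were members, 147 higher and 163 lower, and 245 of them were among the 588. The mitosis list then had 14 lower members, replication 6, heat shock 6 and oxidative phosphorylation 3.

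**Figure D5:**
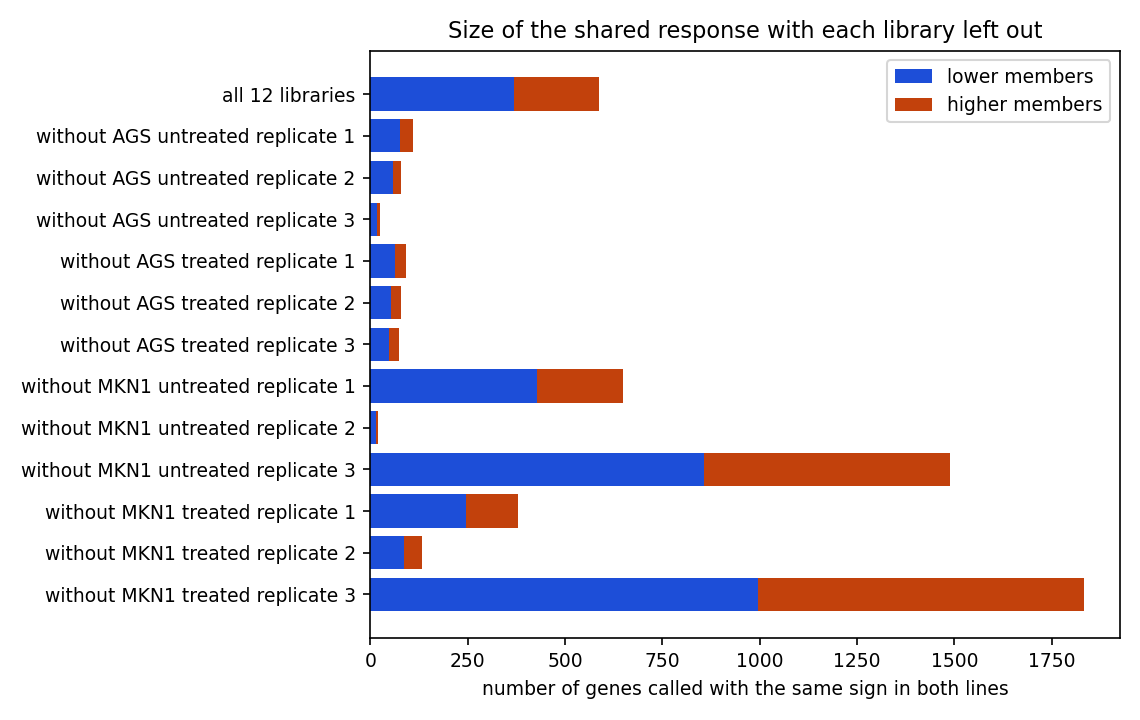
Number of genes called with the same sign in both lines (x axis; blue lower, orange higher) with all 12 libraries and with each library left out. The number is 588 with all libraries, between 25 and 111 with any AGS library left out, 21 without MKN1 untreated replicate 2 and 1833 without MKN1 treated replicate 3.

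The number of members depended on single libraries, and a small set of genes was called whichever library was left out. Leaving out 1 AGS library gave 25 to 111 members, leaving out MKN1 untreated replicate 2 or MKN1 treated replicate 2 gave 21 and 134, and leaving out MKN1 treated replicate 1 gave 379. Without MKN1 untreated replicate 1 there were 648 members, without MKN1 untreated replicate 3 there were 1488, and without MKN1 treated replicate 3 there were 1833. In total 17 members were called in each of the 12 fits, and all 17 were also called with the GC and length trend removed. The 6 higher ones were SLCO1B3, IFI16, SPRED1, DGKE, PDK1 and GIPR. The 11 lower ones were CDC20, UBE2C, FOXM1, TACC3, CDCA5 and CDCA8 of mitosis, LIG1, TK1 and TYMS of DNA synthesis, HSPB1 and SAA2. These genes were picked out after their values were seen.

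TACC3, a protein of spindle microtubules, was at 149.7, 142 and 165 CPM in untreated and 99.5, 92.01 and 107 CPM in treated AGS libraries and at 139, 148 and 129 CPM in untreated and 92.1, 75.7 and 83.1 CPM in treated MKN1 libraries. CDCA5, which encodes the cohesin protector sororin, changed by -0.54 ± 0.11 in AGS and -0.53 ± 0.11 in MKN1, and CDCA8, the chromosomal passenger protein borealin, by -0.50 ± 0.12 in AGS and -0.64 ± 0.12 in MKN1. The treated libraries of all 3 genes lay below the untreated ones in both lines. SAA2, an acute-phase serum amyloid gene, was at 82.6, 85.6 and 85.6 CPM in untreated and 26.4, 24.7 and 19.8 CPM in treated MKN1 libraries, a log2 change of -1.84 ± 0.19. In AGS it was at 0.0394, 0.0571 and 0.128 CPM and at 0.0608, 0 and 0 CPM, where 3 counts stand for 0.0581 to 0.0915 CPM. Its place among the members therefore rests on MKN1, and its near-identical neighbour can take part of its reads.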

How the data were processed

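RNA of AGS and MKN1 cells, untreated or treated with cantharidin sodium, was sequenced in 4 groups of 3 libraries. TRIzol extraction was followed by library preparation with a NEBNext Ultra kit, per the labels' protocols. Reads were aligned with HISAT2 2.0.4 to hg38/GRCh38, per the submitters' processing notes; for counting, tool and annotation are not given in sources used here. What the authors deposited is a table of raw counts, with no normalization and with 28604966 to 51604215 counts a library.

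Low genes were left out by filterByExpr for the 4 groups, and TMM factors and quasi-likelihood F tests of edgeR 4.0.16 (R 4.3.3) were used with Benjamini-Hochberg adjustment over 20280 genes and a threshold of 0.05. The treatment effect came from a model of line plus treatment with 9 residual degrees of freedom, and within-line changes and their difference from a 4-group fit with 8. The SE is the absolute log2 change divided by the square root of F. CPM use TMM-scaled totals, and floors of 3 counts cover counting error only. Symbols were matched for 32069 and GENCODE 29 positions for 32136 of 32269 identifiers.

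Named genes were the 12 largest increases and decreases with at least 5 CPM in each line and no overlap of groups in either line, the first 2 members of each of 35 lists, under the same limits the 3 members with the largest difference between lines each way, and the phosphatase catalytic subunits. Not every member of a list is reported here by name. Members and lists were chosen with earlier results of these data known. Alternatives were 3 scalings, DESeq2 1.42.0, limma 3.58.1 (voom), 2 filters, the replicate number as a block, the mean of the within-line effects, a GC and length correction and each library left out.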

Additional observations from a re-analysis of the deposited data

Results flagged for a closer look

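Some members of the shared response differed in size between the lines by a test of the difference itself (edgeR quasi-likelihood, MKN1 minus AGS, on the log2 scale). This held for 37 of the 588 members. Among named genes with a larger change in AGS, the difference was -2.32 for KLF2, -0.59 for RASSF3, -0.57 for MIA3, 1.19 for SDF2L1, 0.76 for SLC25A10 and 0.76 for BAX. SLC25A10, a mitochondrial dicarboxylate carrier, shares 46.6% of its exon bases with another gene. With a larger change in MKN1, the difference was -0.84 for BCAM and -0.81 for BLVRB, a biliverdin reductase.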

How the results depend on the processing

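Among the 62 named genes checked, no called effect reversed its sign in the alternatives run. The signs of other called genes were not checked. Named genes often lost their call. This held for 57 with the replicate number as a block, 45 without MKN1 untreated replicate 2 and 21 after the GC and length correction. Between 30 and 44 were lost without 1 AGS library, and 0 with DESeq2 or limma voom. Over 22 alternatives, BCAM and PSMD4 passed the threshold in 7, LIPG, PARP8 and BAX in 9, and CDC20, UBE2C and LIG1 in 21. The numbers of members also changed. Higher members numbered 220 and lower members 368 in the reported fit, against 855 and 1120 with DESeq2, 408 and 584 with limma voom, 74 and 149 with no filter, 417 and 444 with a filter of 5 CPM in 3 libraries, 868 and 1198 with the mean of the within-line effects, 246 and 232 with library totals alone, and 147 and 163 after removal of the GC and length trend. The share of higher members was 37.4% in the reported fit and 51.5%, 48.4% and 47.4% with library totals, the 5 CPM filter and the trend removed. All genes with a treatment effect, 222 higher and 373 lower, became 866 and 1144 with DESeq2, 428 and 616 with limma voom, 75 and 151 with no filter, and 1009 and 1466 with the mean of the within-line effects. With the 5 CPM filter 420 were higher, with library totals 236 were lower, and with the trend removed 166 were lower. Members with differing effects numbered 37, and 7, 57, 347 and 18 with no filter, the 5 CPM filter, the mean of the within-line effects and the trend removed. The cause was not tested.

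With 1 library left out, members ranged from 6 to 837 higher and from 15 to 996 lower, genes with a treatment effect from 6 to 843 and from 15 to 1007, and members with differing effects from 0 to 184. The share of AGS calls with the same sign in MKN1 ranged from 40.3% to 54.3%, and that of MKN1 calls in AGS from 23.3% to 66.7%; without MKN1 treated replicate 2 the latter could not be given, since edgeR called 0 genes in MKN1 alone.

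With the replicate number as a block, 0 genes were higher and 0 lower, while 3602 genes had an unadjusted p below 0.05. Differing effects were counted among members only, so with 0 members there was nothing to count. The numbers were not taken as pairing, because the labels do not say that a number marks a shared culture, batch or day. Same-numbered treated and untreated libraries had deviations correlated at -0.04 to 0.18, and differently numbered ones at -0.18 to 0.12. The highest value was that of MKN1 replicate 3, so the correlations do not settle whether the numbers mark pairs.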
